A study of Gallus gallus with 6 samples.

Results

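The genes described here are 4 enzymes at the later steps of steroid metabolism in the hen follicle, namely HSD17B1, AKR1D1, CYP17A1 and CYP19A1. They were taken as every probe set of the chicken array whose annotation gives only one gene symbol and whose symbol is one of these names, which yielded 5 of 38439 probe sets and 4 of 13009 genes. HSD17B1, AKR1D1 and CYP17A1 had 1 probe set each and CYP19A1 had 2. Signal above background was measured for 2 of the 4 genes, HSD17B1 and AKR1D1.

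Steroid hormones are built from cholesterol, which is first cut to pregnenolone and then turned into progesterone. CYP17A1 takes these progestins to androgens, CYP19A1 (aromatase) converts androgens to estrogens, and HSD17B1 is known in mammals for reducing estrone to the more potent estradiol. AKR1D1 reduces the double bond in the A ring of steroids that carry a ketone beside it, giving 5β-reduced products, a step of bile acid synthesis and of the inactivation of progesterone, androgens and glucocorticoids. In the hen the granulosa layer of large yellow follicles is known mainly for progesterone, whereas androgens and estrogens are made largely in the theca layers, which were not among the tissues put on the arrays.

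The arrays held 3 groups from ISA Brown laying hens of 60 weeks. They were kept under 14 h of light and 10 h of dark by the labels and 15 h of light by the methods. The labels also give a temperature, which was the same for all 6 arrays. No other treatment is named. Ov GDR was the germinal disc region, the small area of cytoplasm and nucleus on the yolk, of oocytes that had just been ovulated. By the paper it was free of granulosa cells. F1 GDR was the same region of the largest preovulatory follicle, and it included the granulosa cells lying on it, which could not be removed and were not counted. F1 GCs were granulosa cells dissected beside that region. Each group had 2 arrays, called 1 and 2 here (array 2 has the suffix A in its label). Each array carried RNA pooled from 25 hens. The p-values thus measure the spread between pools, taken over all 3 groups together. An SE therefore also holds the spread of the group outside its comparison. Fewer cells of one type cannot be told apart from less RNA per cell. The share of probe sets above background ran from 36.6% on Ov GDR 1 to 51.4% on F1 GCs 1, and the mean of ACTB, GAPDH and EEF1A1 was 11.5 on Ov GDR 1 and 12.4 on each of the other arrays. The paper reports that ribosomal RNA of the germinal disc region looked degraded from ovulation to oviposition, while mRNA seemed almost intact. The part of this RNA state in the Ov GDR values was not tested. Of the markers of the labelled cells, DDX4 and BMP15 (germ cell and oocyte genes) were at background on all 6 arrays, while DAZL, BTG4, MOS and ZP2 (oocyte genes) were measured in both kinds of germinal disc region.

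HSD17B1 and AKR1D1 were both high in the germinal disc regions and low in granulosa cells, whereas CYP17A1 and CYP19A1 were not above background anywhere. All values are log2 values from gcrma, and values of different probe sets are not compared with each other. Background was set on each array at the brightest of 23 controls for sequences foreign to chicken, and ranged from 2.76 to 3.27.

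HSD17B1 (Entrez Gene 395641) stood at 7.43 on Ov GDR 1 and 7.13 on Ov GDR 2. It stood at 9.20 on F1 GDR 1 and 8.47 on F1 GDR 2. It stood at 4.18 on F1 GCs 1 and 2.29 on F1 GCs 2. From high to low the order was F1 GDR, Ov GDR and F1 GCs, no group overlapped another, and the lowest value, on F1 GCs 2, was at background. The group means were 8.84 ± 0.52 (SD, n = 2) in F1 GDR, 7.28 ± 0.21 (SD, n = 2) in Ov GDR and 3.24 ± 1.34 (SD, n = 2) in F1 GCs.

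AKR1D1 (Entrez Gene 418107) stood at 8.54 on Ov GDR 1 and 10.04 on Ov GDR 2. It stood at 8.49 on F1 GDR 1 and 8.71 on F1 GDR 2. It stood at 2.78 on F1 GCs 1 and 2.67 on F1 GCs 2. The germinal disc regions overlapped each other, and both granulosa arrays lay far under them, the first 0.023 above its background and the second under it. The group means were 9.29 ± 1.06 (SD, n = 2) in Ov GDR, 8.60 ± 0.15 (SD, n = 2) in F1 GDR and 2.73 ± 0.08 (SD, n = 2) in F1 GCs.

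CYP17A1 (Entrez Gene 425056), the 17α-hydroxylase and lyase that opens the route to androgens, lay between 2.46 and 2.63 on the 6 arrays. CYP19A1 (Entrez Gene 414854) lay between 2.49 and 2.65 for one probe set. It lay between 2.49 and 2.64 for the other. All of these values were at background, as were 15625 of 38439 probe sets (40.6%) on all 6 arrays, so no fold and no order of groups is given for either gene. The array cannot tell a low transcript from none at these values. In limma's test the lowest adjusted p of the 3 probe sets over the 3 comparisons was 0.108, for CYP19A1 between F1 GCs and Ov GDR, with a measured difference of -0.11 between background values.

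**Figure D1:**
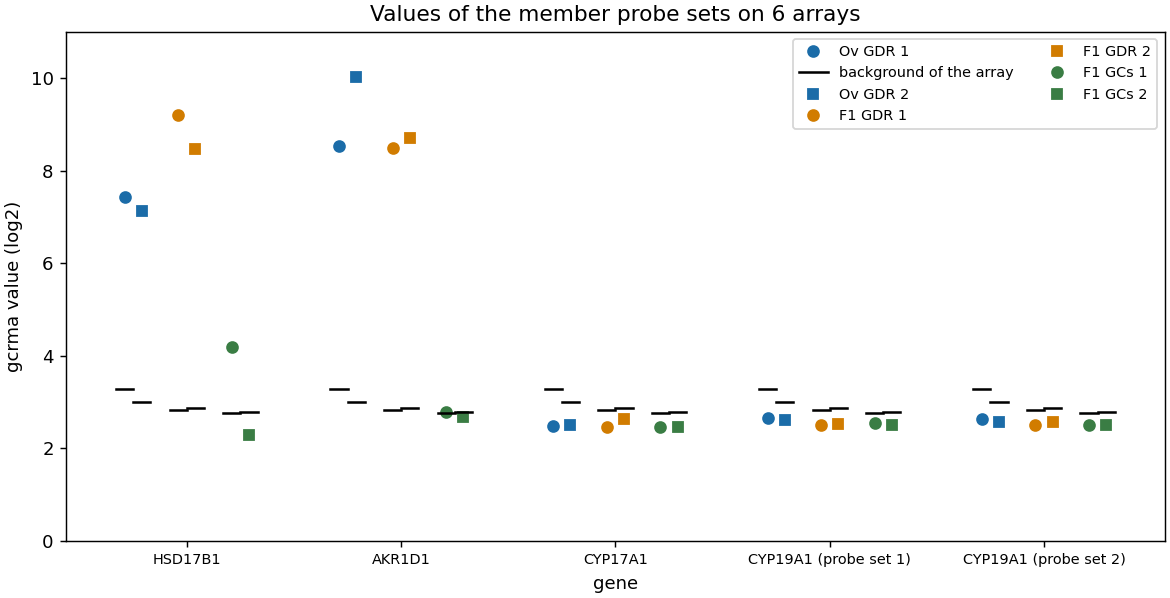
Values of the 5 member probe sets on the 6 arrays. The y axis is the gcrma value (log2), points are single arrays coloured by group (circle array 1, square array 2), and the black dash is the background of that array. HSD17B1 and AKR1D1 stand well above the dashes on the 4 germinal disc arrays, and CYP17A1 and CYP19A1 lie under them on every array.

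The comparison of F1 GDR with F1 GCs sets the germinal disc with its overlying granulosa cells against granulosa cells from next to it. HSD17B1 was 5.60 higher in F1 GDR on the log2 scale (SE 0.72, 95% interval 3.71 to 7.49), or at least 41.0-fold, with an adjusted p of 0.0321 from limma with Benjamini-Hochberg adjustment over 38439 probe sets. AKR1D1 was 5.87 higher in F1 GDR (SE 0.56, 95% interval 4.41 to 7.33), or at least 56.5-fold, with an adjusted p of 0.0251. These SEs also hold the spread of Ov GDR, and with only the 4 arrays compared they were 0.77 for HSD17B1 and 0.21 for AKR1D1. In F1 GCs only 1 of the 2 arrays was above background for each gene, so these and the following folds against F1 GCs count a value under background as the background and are lower bounds, while the log2 differences are as measured. Thus 2 of the 4 genes were called higher in F1 GDR, where 4.34% of all genes were (2.10% of all probe sets). None was called lower, where 3.34% of all genes were (3.09% of all probe sets).

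The calls in this comparison rest on few arrays. HSD17B1 was at least 66.7-fold higher without F1 GCs 1 (adjusted p 0.0497) and 25.2-fold higher without F1 GCs 2 (adjusted p 0.0920), and its call was lost as well without F1 GDR 1 (0.118) or F1 GDR 2 (0.128). AKR1D1 differed by 5.76 to 5.98 whichever array was left out, but its call was lost without either F1 GDR array (0.0844 and 0.108) or either F1 GCs array (0.0867 and 0.107). With the label suffix as a replicate block, adjusted p was 0.0795 for HSD17B1 and 0.0791 for AKR1D1.

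The comparison of F1 GCs with Ov GDR sets granulosa cells against the germinal disc after ovulation. HSD17B1 was lower in granulosa cells by a log2 difference of -4.05 (SE 0.72, 95% interval -5.93 to -2.16, at least 14.0-fold, adjusted p 0.0295). AKR1D1 differed by -6.56 (SE 0.56, 95% interval -8.02 to -5.10, at least 91.0-fold, adjusted p 0.00553). Here 2 of the 4 genes were called lower in F1 GCs, where 10.1% of all genes were (6.51% of all probe sets). None was called higher, where 12.2% of all genes were (8.54% of all probe sets). AKR1D1 lay 0.023 above background on F1 GCs 1 and under it on F1 GCs 2, and HSD17B1 under it on F1 GCs 2. Both comparisons use the same granulosa arrays, so their results are not independent.

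AKR1D1 kept its call in F1 GCs against Ov GDR whichever array was left out, with adjusted p from 0.00431 to 0.0488. Its fold was at least 153 without Ov GDR 1 and at least 54.1 without Ov GDR 2. The HSD17B1 call was lost without Ov GDR 1 (adjusted p 0.0638), F1 GDR 1 (0.0746), F1 GDR 2 (0.0739) or F1 GCs 2 (0.0886), and its fold was at least 22.7 without F1 GCs 1 and 8.58 without F1 GCs 2.

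The comparison of F1 GDR with Ov GDR sets the germinal disc region before ovulation against that after it. By the paper granulosa cells were in the first only, so a change with ovulation cannot be told apart from their absence. HSD17B1 was measured 1.55 higher in F1 GDR (SE 0.72, 95% interval -0.33 to 3.44, 2.94-fold), and every F1 GDR array lay above every Ov GDR array, by 1.04 to 2.07, but the difference did not pass the test (unadjusted p 0.0867, adjusted p 0.313). With only the 4 arrays compared, the HSD17B1 SE was 0.42 and limma's adjusted p 0.361. The AKR1D1 difference was -0.69 (SE 0.56, 95% interval -2.15 to 0.78, adjusted p 0.476), and the groups overlapped. Thus 0 of the 4 genes were called in either direction. Of all genes 3.05% were called higher in F1 GDR (1.63% of all probe sets) and 0.2% lower (0.234% of all probe sets). The intervals leave room for a difference of more than 2 log2 units in HSD17B1 upward and in AKR1D1 downward, so neither gene is shown to be at the same level before and after ovulation.

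The AKR1D1 difference across ovulation turned on 1 pool. It was 0.062 (adjusted p 0.898) without Ov GDR 2 and -1.44 (adjusted p 0.0588) without Ov GDR 1. For HSD17B1 the difference stayed between 1.19 and 1.92 whichever array was left out. Both F1 GDR values of HSD17B1 exceeded all 4 other arrays by at least 1.04. A margin at least that large was found in 163 of 38439 probe sets (0.424%), HSD17B1 included by construction. The 38439 hold 15625 at background on all 6 arrays, so this share is no measure of how unusual HSD17B1 is.

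**Figure D2:**
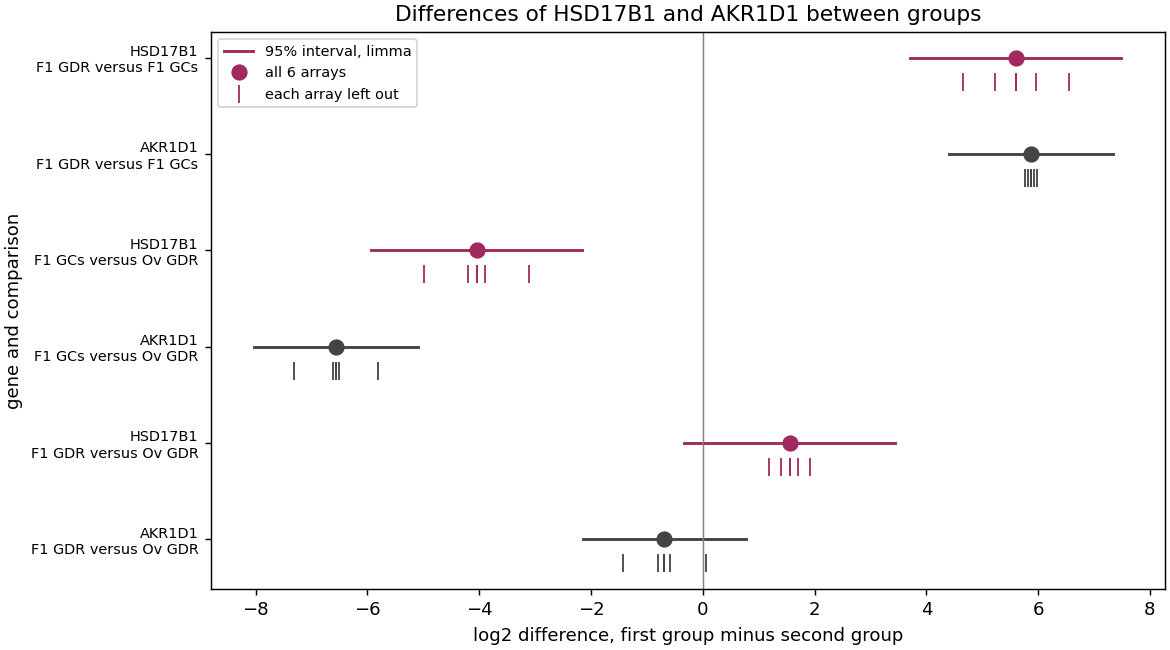
Differences of HSD17B1 and AKR1D1 in the 3 comparisons. The x axis is the log2 difference of the first group minus the second, dots are the fit of all 6 arrays, horizontal lines are 95% intervals from limma, and ticks under each line are the values with each array left out. All values against F1 GCs lie far from 0, whereas both intervals between F1 GDR and Ov GDR include 0.

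The arrays of a group did not always agree on these genes. The granulosa arrays differed by 1.89 in HSD17B1. Of the 8516 probe sets within 0.5 of its level in that group 0.141% differed by more, with a median difference of 0.10. That level is the mean of 1 value above background and 1 under it. The share therefore does not tell how unusual the difference is. Labels of the granulosa arrays give 7 µg of total RNA for F1 GCs 1 and 14 µg for F1 GCs 2. The paper's methods instead name a single, lower amount of total RNA for reverse transcription. The labels may therefore not give the input of these arrays. Some oocyte genes were also higher on F1 GCs 1 than on F1 GCs 2, DAZL by 1.03, BTG4 by 1.09 and ZP2 by 0.89, but over the 9 oocyte genes above background in either granulosa array the median was 0.01, with 6 of 9 higher on F1 GCs 1. Of the 809 probe sets called higher in F1 GDR than F1 GCs, 641 (79.2%) were higher on F1 GCs 1, as were 538 of the 1187 called lower (45.3%) and 39.7% of all probe sets. The last share includes the 15625 probe sets at background on all 6 arrays. In 10 of the 809 (1.24%), HSD17B1 included, F1 GCs 1 exceeded F1 GCs 2 by at least the difference of HSD17B1. AKR1D1 differed by only 0.11 between the same arrays. The part of oocyte material or of RNA amount in the HSD17B1 value of F1 GCs 1 was not tested.

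The ovulated pools differed by 1.50 in AKR1D1, and 7.00% of the 771 probe sets within 0.5 of its level differed by more. Ov GDR 2 was also higher than Ov GDR 1 in DAZL (1.34), MOS (1.34) and EEF1A1 (1.23, a translation factor used as a reporter), and by 0.66 in ACTB and 0.69 in GAPDH. HSD17B1 went the other way, with a difference of -0.30, as did the germ line genes TDRD1 (-1.32), PIWIL1 (-1.20) and ZP2 (-0.51). Over the 9 oocyte and germ line genes above background in either pool, 5 were higher on Ov GDR 2, with a median of 0.12. The Ov GDR arrays were the most unlike of any group over all probe sets, with an SD of their difference of 0.82 while that of F1 GDR was 0.43 and that of F1 GCs 0.30. The part of these differences between arrays in the AKR1D1 result was not tested.

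**Figure D3:**
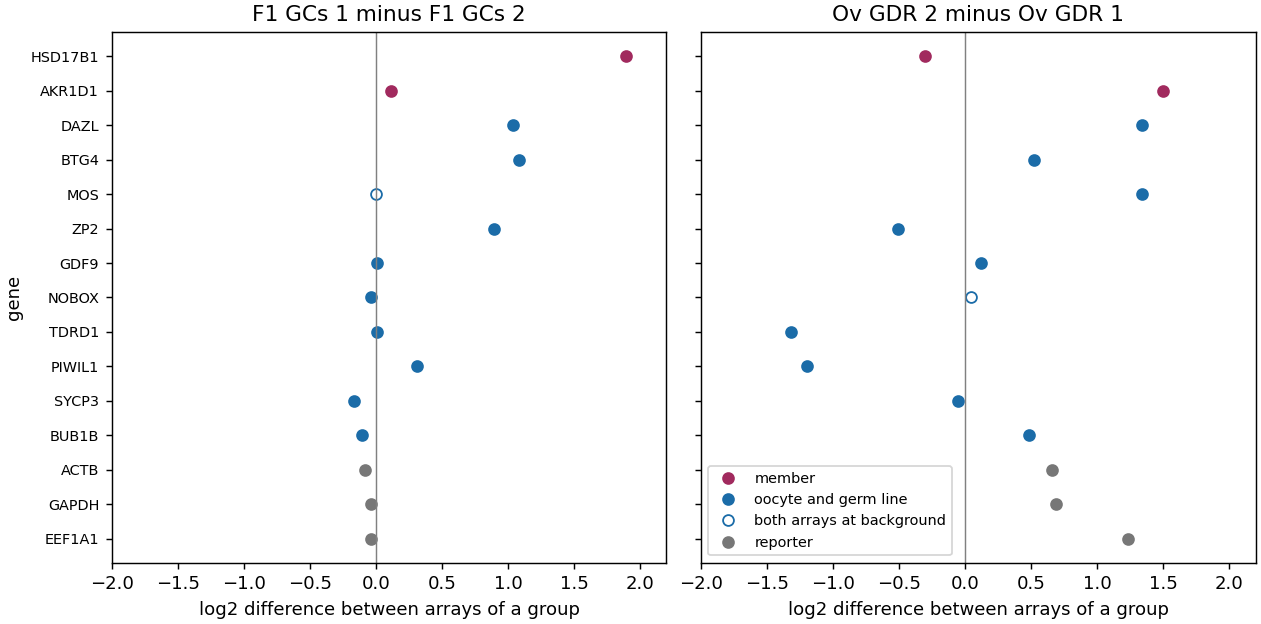
Differences between the 2 arrays of F1 GCs (left) and of Ov GDR (right). The x axis is the log2 difference between arrays, each row is a gene, colours give the members, the oocyte and germ line markers and the reporter genes, and open circles mark genes at background on both arrays. HSD17B1 has the largest difference shown between the granulosa arrays (1.89) and AKR1D1 the largest shown between the ovulated pools (1.50).

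The marker lists moved with the groups in the same direction as the members in part. The summed linear signal of 12 oocyte and germ line genes was 194 to 206 in F1 GCs, 1356 to 1580 in F1 GDR and 1420 to 1994 in Ov GDR. Of these genes 6 of 12 were called higher in F1 GDR than F1 GCs, where 4.34% of all genes were, and 7 of 12 lower in F1 GCs than Ov GDR, where 10.1% were, BTG4 by -5.71 and DAZL by -4.58. BUB1B, the brightest of the 12 on every array, weighed most in the oocyte sums. It was well above background in F1 GCs too, with log2 values of 6.71 and 6.82. The summed signal of 12 granulosa genes was 29218 to 30956 in F1 GCs, 8484 to 11762 in F1 GDR and 4043 to 4701 in Ov GDR. In Ov GDR 9 of the 12 were above background on each array, but most of the sum came from FOXL2 (log2 values of 12.02 and 11.71). INHA and NR5A2 were at background there. Of the 12 granulosa genes 8 were called higher and 2 lower in F1 GCs than Ov GDR, beside 12.2% and 10.1% of all genes. The lower ones were FST (follistatin, -3.29) and FOXL2 (-0.93). In F1 GDR 1 of 12, FST (3.23), was called higher and 3 lower than F1 GCs, and 5 were called higher and 0 lower than Ov GDR. AMH (anti-Müllerian hormone) was not called by its brightest probe set, whereas another went the way of the members, with -4.08 in F1 GCs against Ov GDR and 3.89 in F1 GDR against F1 GCs (adjusted p 0.00536 and 0.0242). HSD17B1 and AKR1D1 were called in the direction of the oocyte list against F1 GCs. Across ovulation the measured HSD17B1 difference was 1.55 (not called), beside a granulosa median of 3.38 and an oocyte median of -0.15. Oocyte genes went both ways there, with 0.50 for DAZL and -0.70 for BTG4 (not called). Of the 12, 1 was called higher in F1 GDR and 0 lower, beside 3.05% and 0.2% of all genes. It was NOBOX (0.79, limma's adjusted p 0.0464), which was at background in Ov GDR. Theca and stroma markers, for the layer in which CYP17A1 and CYP19A1 are best known in the hen, summed to 449 to 510 in F1 GCs, 375 to 488 in F1 GDR and 210 to 340 in Ov GDR over 16 genes, of which 11 were above background on some array. MYL9, a myosin light chain, ranged from 6.35 to 8.38 and, as the brightest of the 16 on every array, weighed most in these sums. COL1A2 was called higher in F1 GCs than Ov GDR (2.55, adjusted p 0.0399), and DES, PDGFRA and LUM were at background on all 6 arrays. Blood and endothelial markers summed to 81.2 to 137 over 11 genes, and the hemoglobin genes HBA1 (5.76) and HBAD (3.67) were above background on F1 GDR 2 only. Over 10 liver genes the sum was 166 to 245 in Ov GDR, 594 to 597 in F1 GDR and 3673 to 4800 in F1 GCs, with ALB at 11.43 and 11.89 and APOA1 at 9.75 and 9.90 in F1 GCs. These were the only liver genes called in F1 GCs against Ov GDR, and the median of the list was -0.06. The part of the makeup of the tissues in the members' results was not tested.

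Upstream of the members, the enzymes that make progesterone were measured highest in F1 GCs, where HSD17B1 and AKR1D1 were lowest. Of 15 listed genes of androgen and estrogen synthesis, which include every member but AKR1D1, 13 were measured, and 5 were called higher and 1 lower in F1 GCs than Ov GDR, with a median difference of 0.36 against -0.08 over all 13009 genes, of which 12.2% were called higher and 10.1% lower. CYP11A1, the side chain cleavage enzyme that makes pregnenolone, stood at 2.71 and 3.18 in Ov GDR, 10.73 and 10.13 in F1 GDR, and 11.94 and 11.97 in F1 GCs. HSD3B1, which makes progesterone from pregnenolone, stood at 3.91 and 3.46, then 11.71 and 11.13, then 12.72 and 12.67. Both were thus lowest in Ov GDR, by the paper free of granulosa cells, and lay close to or under background there. In F1 GDR against F1 GCs neither was called by limma, with -1.52 for CYP11A1 (adjusted p 0.0733) and -1.28 for HSD3B1 (adjusted p 0.0855). Against Ov GDR, CYP11A1 was 9.01 higher in F1 GCs (adjusted p 0.00268) and 7.49 higher in F1 GDR (adjusted p 0.00666), and FDX1B, a ferredoxin, 9.49 and 8.33 higher (adjusted p 0.00222 and 0.00467). FDX1B too lay close to or under background in Ov GDR (2.69 and 3.02), so these differences are taken from values near background.

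The F1 GDR arrays therefore gave signal for both progesterone enzymes and for HSD17B1, and none above background for CYP17A1 and CYP19A1, which lie between them in the pathway. Between F1 GDR and Ov GDR 3 of the 13 genes were called higher and 0 lower (median 0.15, against -0.04 over all genes, with 3.05% of genes called higher and 0.2% lower). Between F1 GDR and F1 GCs only HSD17B1 was called higher and only CYB5A lower (median -0.21, against 0.03 over all genes, with 4.34% and 3.34% called). CYB5A, the cytochrome b5 that aids the lyase step of CYP17A1, was lower in F1 GDR by a difference of -1.43 (adjusted p 0.0284), while its other probe set gave -1.87 and was not called (adjusted p 0.477). POR, which hands electrons to CYP17A1 and CYP19A1, was measured on all 6 arrays, at 7.56 and 8.28 in Ov GDR, 8.07 and 7.76 in F1 GDR, and 6.74 and 6.53 in F1 GCs, with no call. Of the other 17β-hydroxysteroid dehydrogenases in this list, HSD17B7 ranged from 8.63 to 9.50 without a call, and HSD17B3, known in mammals for making testosterone, was above background on F1 GDR 2 only (2.97).

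Enzymes listed for the oxidation or conjugation of sex steroids gave few calls. Of 23 listed genes 17 were measured, and 5 were called higher and 0 lower in F1 GCs than Ov GDR (median -0.02). Of all genes 12.2% were called higher and 10.1% lower there, with a median of -0.08. Between F1 GDR and Ov GDR 0 of the 17 were called, where 3.05% of all genes were called higher and 0.2% lower. Between F1 GDR and F1 GCs 0 were called higher and 1 lower, where 4.34% and 3.34% of all genes were. Of the 17 genes 11 were above background on some array. At these shares the lack of a call in the direction of HSD17B1 says little. CYP3A4 was 4.15 higher in F1 GCs than Ov GDR (adjusted p 0.00714), HSD17B13 3.56 higher (adjusted p 0.0132) and HSD17B4, a peroxisomal enzyme of fatty acid oxidation that can also oxidise estradiol, 2.47 higher (adjusted p 0.0343). Of the Ov GDR values of CYP3A4, that on Ov GDR 2 (2.60) was under background. CYP1B1, which hydroxylates estrogens, was at background in both germinal disc groups, and F1 GCs exceeded F1 GDR at least 2.50-fold (adjusted p 0.0461), with bounds taken against the background of each array. SULT1E1, the estrogen sulfotransferase, was 1.99 higher in F1 GCs than Ov GDR (adjusted p 0.0202), though its other probe set differed by 0.28 and was not called. By the first probe set SULT1E1 was under background on Ov GDR 1 (3.23). STS, which frees steroids from their sulfates, stood at 6.66 and 6.04 in Ov GDR, 5.12 and 5.77 in F1 GDR, and 4.59 and 3.23 in F1 GCs, with no call (adjusted p 0.0581 between F1 GCs and Ov GDR).

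Among reductases, AKR1A1 and AKR1B1 of the same superfamily as AKR1D1 were called lower in F1 GCs than Ov GDR as well. Of 19 listed genes 11 were measured, and 6 were above background on some array. In F1 GCs against Ov GDR 0 were called higher and 3, AKR1D1 among them, lower (median -0.06). In F1 GDR against F1 GCs 2, AKR1D1 among them, were called higher and 0 lower (median 0.02). Between F1 GDR and Ov GDR 0 were called (median -0.08). Of all genes 12.2% were called higher and 10.1% lower in the first of these comparisons, 4.34% and 3.34% in the next, and 3.05% and 0.2% in the last. AKR1A1, the aldehyde reductase, stood at 9.05 and 8.55 in Ov GDR, 8.32 and 8.19 in F1 GDR, and 5.67 and 5.69 in F1 GCs. It was 2.57 higher in F1 GDR than F1 GCs (adjusted p 0.0284) and differed by -3.12 between F1 GCs and Ov GDR (adjusted p 0.00639), and of its 4 probe sets 3 were called in the latter comparison, the other giving -1.20 (adjusted p 0.344). AKR1B1, the aldose reductase, differed by -2.35 between F1 GCs and Ov GDR (adjusted p 0.0419). With each array left out in turn, that difference ranged from -2.96 (without Ov GDR 1) to -1.73 (without Ov GDR 2). The AKR1B1 call was not kept throughout. SRD5A1 and SRD5A2, which make the 5α-reduced products that AKR1D1 does not, were at background on all 6 arrays. A lower level in F1 GCs could therefore not be seen for them. SRD5A3, better known for dolichol synthesis, ranged from 7.11 to 7.43 without a call.

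**Figure D4:**
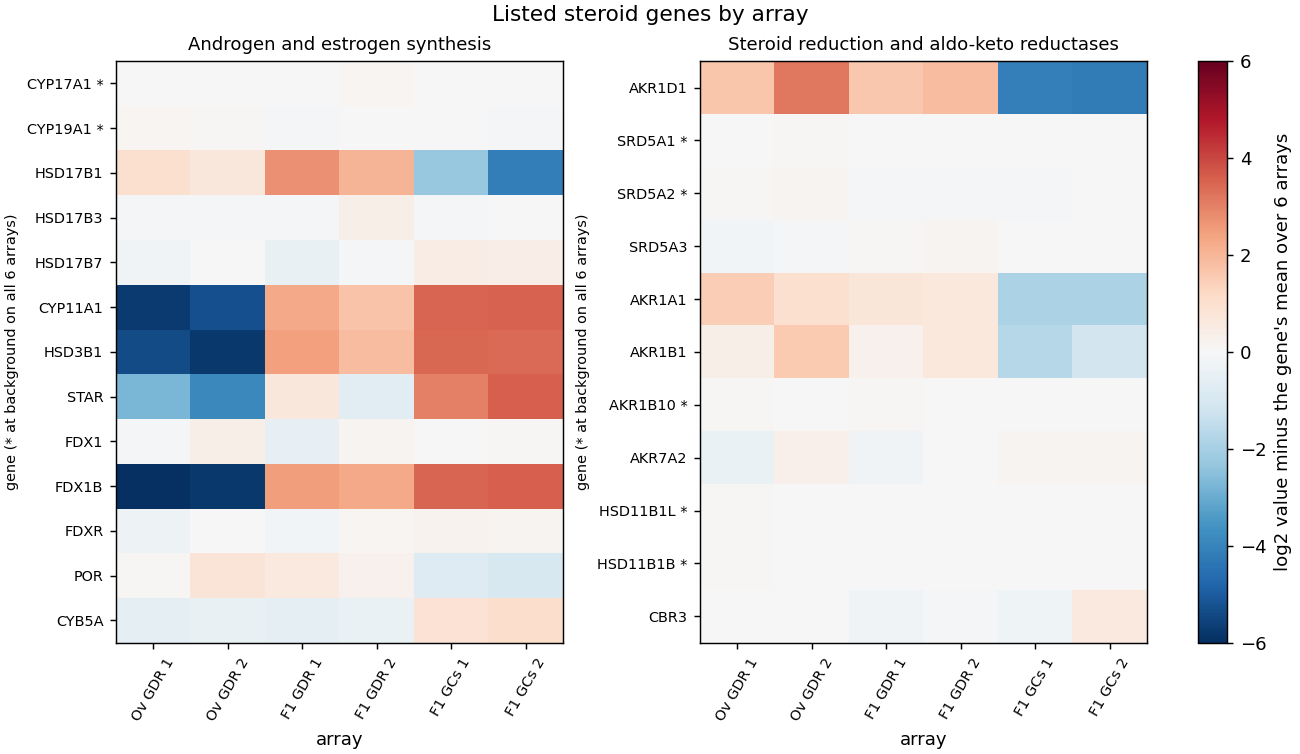
Measured genes of the lists for androgen and estrogen synthesis (left) and for steroid reduction (right) on the 6 arrays. Colour is the log2 value minus the mean of that gene over the arrays, and a star marks genes at background on all 6 arrays. HSD17B1, AKR1D1, AKR1A1 and AKR1B1 are lowest on the F1 GCs arrays, where CYP11A1, HSD3B1, STAR and FDX1B are highest.

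By the brightest probe set of each gene, no other listed gene of bile acid synthesis was called in the direction of AKR1D1. Of 14 listed genes 13 were measured, and CYP7A1 (its rate-limiting enzyme), CYP7B1, CYP8B1, HSD3B7 and BAAT were at background on all 6 arrays. In F1 GDR against F1 GCs AKR1D1 was the only gene of the list called, where 4.34% of all genes were called higher and 3.34% lower. In F1 GCs against Ov GDR 2 genes were called higher and 1, AKR1D1, lower, where 12.2% and 10.1% of all genes were. At these shares a list of 13 genes would hold few calls in any case. CYP46A1, the cholesterol 24-hydroxylase known from brain, ran the other way, 4.68 higher in F1 GCs than Ov GDR (adjusted p 0.00489) and 2.82 higher in F1 GDR than Ov GDR (adjusted p 0.0462). Its value on Ov GDR 1 (2.31) was under background. CYP27A1, the sterol 27-hydroxylase, ranged from 4.37 to 6.36 without a call.

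Transcription factors known to act on ovarian steroid genes went both ways. Of 18 listed genes 15 were measured, and 4 were called higher and 4 lower in F1 GCs than Ov GDR (median -0.29), beside 12.2% and 10.1% of all genes. NR5A1 (steroidogenic factor 1), an activator of many of these enzymes, stood at 5.50 and 5.94 in Ov GDR, 9.28 and 9.58 in F1 GDR, and 10.33 and 10.54 in F1 GCs, and NR5A2 in F1 GCs exceeded Ov GDR at least 265-fold (adjusted p 0.00414). NR0B1 (DAX1), known as a repressor of NR5A1, stood at 10.04 and 10.56, then 9.60 and 10.51, then 7.36 and 7.54, which was 2.61 higher in F1 GDR than F1 GCs (adjusted p 0.0377). By the brightest probe set of each gene, NR0B1 was the only one of these 15 called higher in F1 GDR than F1 GCs, as HSD17B1 and AKR1D1 were. Of all genes 4.34% were called so. Against Ov GDR, SOX9 was at least 3.74-fold lower in F1 GCs (adjusted p 0.0150). DMRT1 was 3.95 higher in F1 GCs than Ov GDR by 1 probe set (adjusted p 0.0150), and its other 6 probe sets were not called.

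Calls of these pathway genes moved with single arrays as well. Of the 23 genes called between F1 GCs and Ov GDR, 9 to 23 were still called when an array was left out, fewest without F1 GCs 2. Of the 8 called between F1 GDR and F1 GCs, 7 remained without either Ov GDR array, 2 without F1 GCs 1 and 0 without F1 GCs 2 or either F1 GDR array. Of the 6 called between F1 GDR and Ov GDR, 6 remained without either Ov GDR array and 0 without any of the other arrays.

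Genes whose values over the 6 arrays lay nearest to the members are given as a description. They were picked by these same values, so their likeness to the members is by construction. Nearness is the root mean square difference of values centred on the mean of each gene, over 7251 genes with a mean of at least 4 in some group. For HSD17B1 they were BRCA1 (0.40), SGK2 (0.42), RGS16 (0.47), CDT1 (0.51) and LOC430303 (0.52), of which BRCA1 acts in DNA repair and CDT1 in the licensing of replication. BRCA1 stood at 8.07 and 7.58 in Ov GDR, 9.29 and 9.63 in F1 GDR, and 5.38 and 2.69 in F1 GCs, with a drop between the granulosa arrays as in HSD17B1. For AKR1D1 they were FABP3 (0.55), a fatty acid carrier, UBE2U (0.55), BTG4 (0.59), an oocyte gene, LOC424111 (0.59) and SHANK2 (0.65). HSD17B1 and AKR1D1 were 1.37 apart from each other by this measure, and neither was among the 5 genes nearest to the other.

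**Figure D5:**
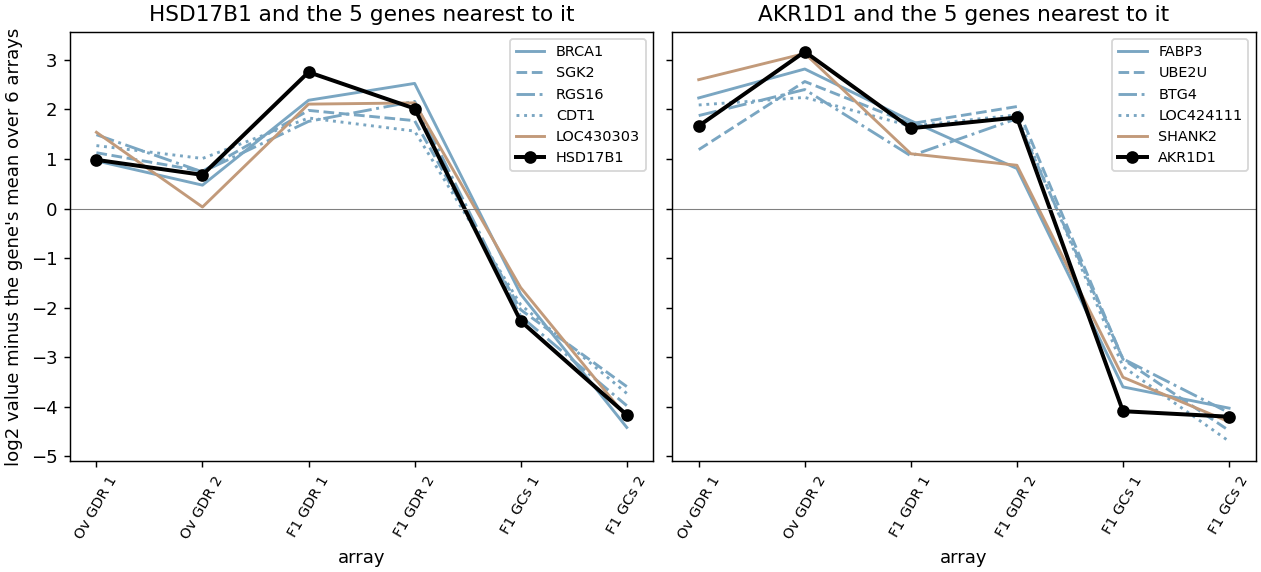
HSD17B1 (left) and AKR1D1 (right) in black with the 5 genes nearest to each. The y axis is the log2 value minus the mean of that gene over the 6 arrays, and lines join the arrays only to make each gene easy to follow. HSD17B1 and its neighbours peak on the F1 GDR arrays and drop again between the granulosa arrays, and AKR1D1 and its neighbours are high on all germinal disc arrays and low on both granulosa arrays.

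The genes beside HSD17B1 and AKR1D1 in RefSeq order were not called in any of the 3 comparisons. HSD17B1 is on chromosome 27, next to MLX, which differed by -0.02 between F1 GDR and F1 GCs (adjusted p 0.994), and NAGLU, which lay near background. AKR1D1 is on chromosome 1, next to TRIM24, which differed by 0.03 between F1 GDR and F1 GCs (adjusted p 0.996), and LOC418108, which was at background. Beside CYP17A1 on chromosome 6, BORCS7 was 2.65 higher in F1 GCs than Ov GDR (adjusted p 0.00744) and WBP1L 3.16 higher (adjusted p 0.00944), while CYP17A1 itself was at background. CYP19A1 on chromosome 10 lies between GLDN, at background on all 6 arrays, and DMXL2, above it on 1.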

How the data were processed

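Total RNA from pools of 25 hens was labelled and put on Affymetrix chicken genome arrays. The deposited values are log2 values per probe set that the authors made with gcrma on all 6 arrays, and they were used without further scaling; which versions of gcrma and R they used is not stated in the labels or methods. The column of F1 GDR 2 is given to 2 decimals. All 6 value columns were mapped to samples. Of the probe sets, 96 Affymetrix controls were left out and 38439 tested with no filter on signal, of which 27168 carry 1 gene symbol, 177 several and 11094 none. The 4 members matched RefSeq by Entrez ID. A gene is represented by its probe set of highest mean. Where a probe set was at background on an array, its fold against that group counts the background in place of the value and is a lower bound. Arrays give no counts, so their number (2 per group) limits the precision.

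A linear model on all 6 arrays was fitted with limma (version 3.58.1, R version 4.3.3), with 3 residual and 1.66 prior degrees of freedom, a mean-variance trend and Benjamini-Hochberg adjustment, two-sided, called at an adjusted p under 0.05. The script was tested on simulated data. The methods' variance groups with Bonferroni adjustment (varmixt) were rebuilt as an alternative, since that tool was not at hand. The rebuild called far more probe sets in each comparison than the paper reports genes, so it does not stand for the paper's test. An exact permutation test of 2 against 2 arrays cannot give a p under 0.333. Named genes are every member probe set, the 4 called genes of largest difference per list and comparison (others as levels), marker and reporter genes, and the 5 genes nearest to each measured member. Neighbours of the members in RefSeq order were added after their values were seen. The members and lists were chosen with earlier results of these data known, and lists are described by counts without a test. The alternatives were other variance models and adjustments, a block, a filter at a log2 of 4, equal reporter means, other backgrounds and each array left out.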

Additional observations from a re-analysis of the deposited data

How the results depend on the processing

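Between F1 GDR and F1 GCs the differences of HSD17B1 (5.60) and AKR1D1 (5.87) kept their call in 6 of 9 other settings each, and lost it with the replicate block (adjusted p 0.0795 and 0.0791), with a separate variance per probe set (0.233 and 0.123) and with Bonferroni adjustment (adjusted p 1 for both). Between F1 GCs and Ov GDR, HSD17B1 (-4.05) was called in 5 of 9, and lost its call with only the 4 arrays compared (0.0716), with a separate variance (0.175), with the rebuilt variance groups under Bonferroni (1) and with Bonferroni adjustment (1). AKR1D1 (-6.56) was called in 7 of 9, and lost its call with a separate variance (0.107) and with Bonferroni adjustment (1). The paper lists AKR1D1 among the genes higher in Ov GDR than F1 GCs, by its own test with Bonferroni adjustment. Neither HSD17B1 nor AKR1D1 was called between F1 GDR and Ov GDR in any of the 9. The rebuilt variance groups, under either adjustment, take p from a normal distribution and make no allowance for 2 arrays per group. With equal reporter means, limma's adjusted p of HSD17B1 (F1 GDR against F1 GCs) was 5.1e-16, at an SE of 0.62 beside 0.72 in the main fit. Calls kept in these settings therefore say little on how firm the results are. With each array left out in turn, HSD17B1 ranged from 4.66 to 6.55 (F1 GDR against F1 GCs), from -4.99 to -3.10 (F1 GCs against Ov GDR) and from 1.19 to 1.92 (F1 GDR against Ov GDR), and AKR1D1 from 5.76 to 5.98, from -7.31 to -5.81 and from -1.44 to 0.062, the last turning positive without Ov GDR 2. With one array left out the lone array of a group was assumed to vary like the others.

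Counts of called probe sets depended more on the setting. They were 715 for F1 GDR against Ov GDR, 1996 for F1 GDR against F1 GCs and 5786 for F1 GCs against Ov GDR, and in that order 0, 3363 and 3395 with only the 4 arrays compared, and 28, 0 and 3374 with the replicate block. The filter gave 1411 and 3742 for the comparisons of F1 GDR, and equal reporter means 1722 and 3013. Separate variances gave 0, 2 and 422, and Bonferroni adjustment 8, 0 and 16 (7199, 6873 and 13503 at an unadjusted p under 0.05). The rebuilt variance groups gave 2147 and 7579 for the comparisons of F1 GDR with Benjamini-Hochberg adjustment, and 3541 and 3355 for those of F1 GCs with Bonferroni. Leaving out an array gave 1 to 6542, 4 to 3323 and 1394 to 13138. The cause of these shifts was not tested.

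Setting the reporter genes equal moved the median of all probe sets by -0.46, -0.03 and -0.43. Calls split into 625 higher and 90 lower became 792 and 930, 809 and 1187 became 1354 and 1659, and 3284 and 2502 became 2467 and 3307. HSD17B1 then differed by 1.10, 5.57 and -4.47 and AKR1D1 by -1.14, 5.84 and -6.99. Deviations of same-suffix arrays correlated by 0.18 between Ov GDR and F1 GCs and by -0.15 in each of the other pairs of groups. With so few arrays per group, these values cannot tell whether the suffix pairs pools across groups. Such pairing is not stated in the labels or methods and was not tested. Outside the replicate block the suffix serves here only to name the arrays. A background at the 95th percentile of the foreign controls changed no member's arrays above background.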
